A study of Rattus norvegicus with 35 samples.

Results

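The respiratory chain and ATP synthase genes described here are the 90 genes on the array whose symbol names a subunit, or a factor named after one, of complexes I to V of oxidative phosphorylation. They were chosen by name alone, as symbols starting with Nduf, Uqc or Atp5, the 4 Sdh subunit genes, Cyc1, and Cox followed by a digit from 4 to 8. They are 90 of the 10411 genes the array could name, and 96 of its 15866 probe sets carry these names. A probe set is a group of short probes that reads one transcript, and the one with the highest mean signal stands for a gene that has several. By complex, 39 genes belong to complex I, 4 to complex II, 13 to complex III, 18 to complex IV and 16 to complex V. Ndufa4 is counted with complex IV, where it is now placed, together with its relative Ndufa4l2.

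RNA was measured on one array each for 35 rat tissue samples, 11 normal mammary glands and 24 frozen mammary tumours. The tumours had been induced with N-methyl-N-nitrosourea (NMU), a methylating carcinogen used to raise mammary tumours in rats, and the label of the glands names no treatment. Strain, age and dose are not given in the labels used here, and samples keep their label titles (NewN1 to NewN8, X27.1N, X28.1N and Young for the glands, X2 to X32 for the tumours). The labels do not say that samples came from separate animals, and a p-value here weighs a difference only against the sample-to-sample spread, which can be technical.

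Oxidative phosphorylation takes place in the inner mitochondrial membrane. Complexes I and II pass electrons to ubiquinone, complex III passes them to cytochrome c, and complex IV passes them to oxygen. Complexes I, III and IV pump protons as they do so, and complex V, the ATP synthase, lets the protons return and makes ATP. Most subunits are encoded in the nucleus, and the genes described here are of that kind. In the mammary gland the tissue holds epithelium, white fat and other cells, each with its own content of mitochondria.

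Most of the genes read lower in the tumours. Of the 90, 71 were lower, 5 were higher and 14 did not pass the test (limma, adjusted p under 0.05 after Benjamini-Hochberg adjustment over all probe sets). Over all 10411 genes, 27.6% were lower and 31.4% were higher. The median log2 change, tumour minus normal, was -0.39 for the 90 genes and 0.024 for all genes. The changes were modest in size: 17 of the 71 fell 1.5-fold or more, and 2 of these, Ndufs1 and Cox6a2, fell 2-fold or more. For Cox6a2, 23 of the 24 tumours read at or under 41.6, the floor set before log2 was taken. Counts by size of change were not made for all genes. For 11 genes every one of the 24 tumours lay below every gland, against 2.27% of all genes. The 11 were chosen after their values were seen, and they are Ndufs1, Ndufb3, Ndufa1, Ndufb6, Ndufs6 and Ndufb2 of complex I, Sdha and Sdhd of complex II, Cox4i1 and Cox6c of complex IV, and Atp5mg of complex V. In bulk tissue, fewer cells of a type and less RNA per cell cannot be told apart.

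The count depends on how the arrays are put on one scale. The deposited signals had a narrower range in the tumours: the 90th percentile of signal ran from 639 to 763 over the glands and from 491 to 678 over the tumours, while the 10th percentile ran from 33.4 to 42.3 and from 39.1 to 48.3. Of the 90 genes, 77 lie above the median mean signal of all probe sets, and the median percentile of their mean signal is 94.3. With quantile normalization, which gives every array the same distribution, 43 were lower and 11 were higher, with a median of -0.15. All genes were then 22.4% lower and 34.2% higher, with a median of 0.068. Of the calls made among the 90 genes, 6.58% were in the direction of higher in the deposited scaling and 20.4% after quantile normalization. Over all genes, 3269 calls were higher and 2871 lower in the deposited scaling, against 3560 and 2334 after quantile normalization. All 43 were among the 71, the other 28 did not pass the test, and 16 genes had a change of the opposite sign. When the test was run on probe sets above that median alone, 65 genes were lower and 2 were higher, against 35.2% and 25% of all genes there.

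The choice of reference glands also moved the count. Against X27.1N, X28.1N and Young alone, 44 genes were lower and 0 were higher in limma, against 11.1% and 6.87% of all genes, and the median change was -0.42. The kind of gland and the number of glands changed together there. At an unadjusted p under 0.05, 1 gene was higher against these glands. Markers of other cell types moved with the groups. Each of the 11 measured adipocyte markers was lower in the tumours, with summed signals from 12335 to 33683 over the glands and from 446 to 5181 over the tumours, and 1 of them was at the floor of 41.6 in every tumour. All 11 measured skeletal muscle markers were lower too, with sums from 1504 to 24842 and from 1153 to 1983, and 2 of them were at the floor in every tumour. Of the 9 measured luminal epithelial markers, 6 were higher, and their sums ran from 3967 to 11824 over the glands and from 806 to 28365 over the tumours. The tumour X22L had the lowest tumour signal for each of the 9 (98.5 for Epcam, 75.7 for Krt8). Without X22L, 71 genes were lower and 6 were higher, against 28.3% and 32.4% of all genes. Of the 6 measured endothelial markers 5 were lower, with sums from 1581 to 2560 and from 719 to 1746, and of the 9 measured lymphocyte markers 5 were lower and 1 was higher, with sums from 755 to 10469 and from 684 to 1704. Without the 7 glands whose muscle creatine kinase (Ckm) signal was above that of every tumour, 50 genes were lower and 2 were higher, against 16.4% and 15.3% of all genes, with a median change of -0.37. The part of fat, epithelium and blood cells in the changes was not tested.

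**Figure D1:**
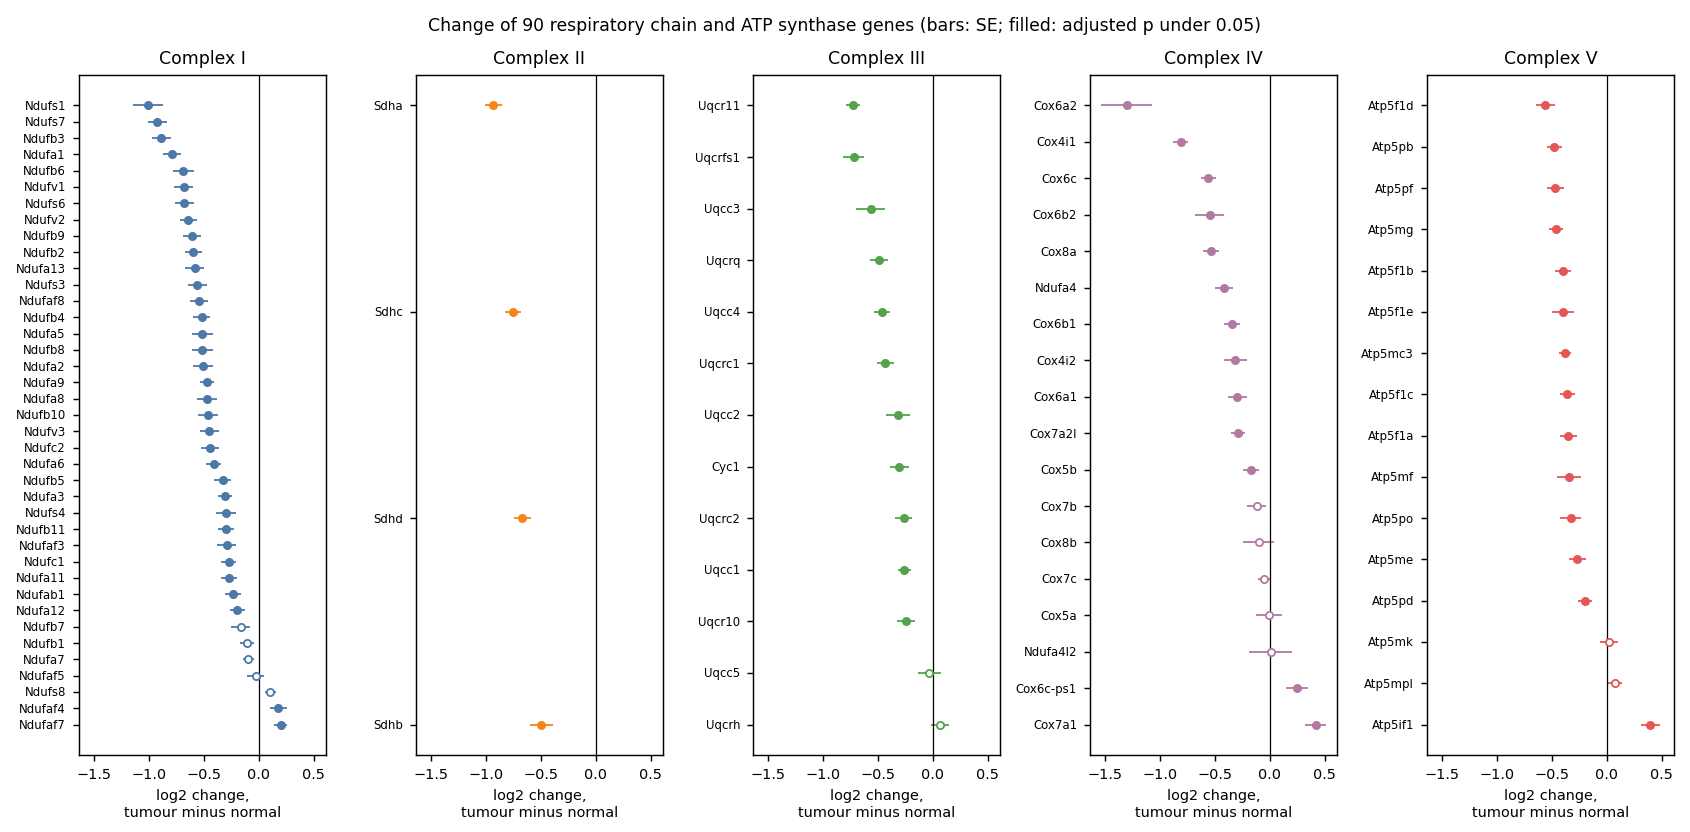
Log2 change of the 90 genes, tumour minus normal, on the horizontal axis, with 1 panel for each complex and genes ordered by change. Points are the estimates from 24 tumours and 11 glands, bars are SE, and filled points passed the test; 71 filled points lie left of 0 and 5 lie right of it.

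The promoter is where these genes are known to share regulators, so the sequences of 5 of them are shown. They are Sdha, Sdhb and Ndufs1, which were lower in the tumours and hold motifs, Atp5if1, which was higher, and Cox6a2, which is muscle-specific. Each run gives 250 bases before the start of transcription and 30 after it, 5′ to 3′ in the direction of the gene, from RefSeq on the GRCr8 build. Sdha lies at chr1:30764303-30764582 on the plus strand, Sdhb at chr5:158547684-158547963 on the plus strand, Ndufs1 at chr9:72073576-72073855 on the minus strand, Atp5if1 at chr5:150026648-150026927 on the minus strand and Cox6a2 at chr1:192219687-192219966 on the minus strand. Capitals mark a match to one of 4 motifs on either strand: TGCGCA, the core of the NRF1 site, CCGGAAG, an ETS site of the kind bound by GABPA, AAGGTCA, the site of the estrogen-related receptors, and ATGGCGG, a YY1 site. No base is shared by matches of different motifs in the 5 windows shown.
Sdha: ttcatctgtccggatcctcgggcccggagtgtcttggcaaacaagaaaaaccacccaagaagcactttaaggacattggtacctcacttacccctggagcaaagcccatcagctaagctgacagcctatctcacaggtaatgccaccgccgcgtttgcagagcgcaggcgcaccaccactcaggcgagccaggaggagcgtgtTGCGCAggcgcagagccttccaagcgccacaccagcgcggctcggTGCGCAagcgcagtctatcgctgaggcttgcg
Sdhb: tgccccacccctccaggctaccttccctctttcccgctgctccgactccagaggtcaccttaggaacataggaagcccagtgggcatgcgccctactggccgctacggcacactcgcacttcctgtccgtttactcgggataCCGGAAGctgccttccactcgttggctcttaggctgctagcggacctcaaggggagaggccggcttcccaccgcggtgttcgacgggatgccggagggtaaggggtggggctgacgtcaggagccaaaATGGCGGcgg
Ndufs1: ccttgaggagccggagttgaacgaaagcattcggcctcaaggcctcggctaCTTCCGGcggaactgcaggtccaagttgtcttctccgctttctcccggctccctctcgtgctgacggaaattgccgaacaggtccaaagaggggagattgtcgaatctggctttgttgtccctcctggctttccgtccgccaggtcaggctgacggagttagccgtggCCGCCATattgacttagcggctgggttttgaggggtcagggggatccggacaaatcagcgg
Atp5if1: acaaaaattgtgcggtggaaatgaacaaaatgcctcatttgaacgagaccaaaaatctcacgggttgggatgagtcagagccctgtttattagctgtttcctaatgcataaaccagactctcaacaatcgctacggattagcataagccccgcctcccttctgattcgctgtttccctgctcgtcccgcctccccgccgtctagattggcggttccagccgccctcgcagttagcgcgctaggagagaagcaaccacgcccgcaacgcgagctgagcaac
Cox6a2: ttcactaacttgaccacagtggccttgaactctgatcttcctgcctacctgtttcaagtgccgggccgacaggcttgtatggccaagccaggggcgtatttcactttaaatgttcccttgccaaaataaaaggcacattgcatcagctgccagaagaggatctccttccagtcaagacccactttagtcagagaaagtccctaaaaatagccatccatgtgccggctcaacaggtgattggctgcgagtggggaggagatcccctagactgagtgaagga

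The Sdha window holds 2 NRF1 cores, those of Sdhb and Ndufs1 hold an ETS site and a YY1 site each, and those of Atp5if1 and Cox6a2 hold none of the 4. A promoter window of the full length, 250 bases before and 50 after the start, was matched by symbol for 81 of the 90 genes. The NRF1 core was present in 28.4% of the 81, against 7.24% of all 33469 promoters of that length. The ETS site was present in 28.4% against 8.75%, the receptor site in 13.6% against 4.61%, and the YY1 site in 17 of the 81 windows against 4.80% of all. These sets are unlike. The 33469 promoters outnumber the 10411 named genes of the array and so reach beyond them. They were not matched in signal to the 90 genes, whose median percentile of mean signal is 94.3. Whether the shares differ from those of array genes of like signal was not tested. Of the 81 windows, 33 held none of the 4 motifs. Among the 63 windows of genes that were lower in the tumours, the NRF1 core was in 20 and the ETS site in 19, and among the 14 of genes that did not pass the test they were in 3 and 4. The 4 windows of genes that were higher, Atp5if1, Cox7a1, Ndufaf4 and Ndufaf7, held none of the 4 motifs. Windows of some genes that were lower held none either, those of Ndufb3, Sdhc, Uqcrfs1, Ndufv1 and Ndufs3 among them. These matches describe letters in a window, and no test was made of them.

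Complex I, the NADH dehydrogenase, had 32 of 39 genes lower and 2 higher, with a median log2 change of -0.46. With quantile normalization 21 were lower and 5 were higher, with a median of -0.22. Its 6 measured core subunits, most of which carry the flavin or iron-sulfur centres along which electrons travel, had a median of -0.66, with 5 lower. Its 28 accessory subunits had a median of -0.46, with 25 lower. The 5 assembly factors, which build the complex and are not part of it, had a median of -0.028, with 2 lower and 2 higher. With quantile normalization the medians of the core subunits, accessory subunits and assembly factors were -0.42, -0.18 and -0.068.

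The core subunit Ndufs1, which holds iron-sulfur clusters in the arm that faces the matrix, had the largest fall of complex I. Its signal ran from 293 in X27.1N to 463 in NewN2, with a median of 368, over the glands and from 66.4 in X4 to 280.3 in X6, with a median of 206, over the tumours. No tumour reached the lowest gland. The change was -1.01 (SE 0.14, adjusted p = 1.40e-07), 2.01-fold lower. Ndufs7, a core subunit that hands electrons on towards ubiquinone, came next. Signals went from 504 in Young to 853 in NewN1, with a median of 777, over the glands and from 301 in X27 to 556 in X9, with a median of 388, over the tumours. Of the tumours 23 lay below every gland, and the change was -0.92 (SE 0.087, adjusted p = 4.93e-11). The core subunits Ndufv1 and Ndufv2, at the entry site of NADH, changed by -0.68 and -0.64, and Ndufs3 by -0.56.

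Ndufs8 was the core subunit that did not pass the test. Over the arrays its signal ran from 666 in Young to 815 in NewN6, with a median of 736, over the glands and from 652 in X29.2 to 925 in X2, with a median of 781, over the tumours, so the groups overlapped over most of their range. The change was 0.10 (SE 0.050, adjusted p = 0.0728), and with quantile normalization it was 0.39 (adjusted p = 1.97e-05). Ndufs8 thus lay on the other side of 0 from the other 5 core subunits under both scalings.

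Among the accessory subunits the changes ran from -0.89 for Ndufb3 to -0.10 for Ndufa7. Ndufb9, named for its signal, ran from 1708 in NewN6 to 2261 in NewN7, with a median of 1977, over the glands and from 965 in X4 to 1835 in X17, with a median of 1292, over the tumours. Of the tumours 22 lay below every gland, and the change was -0.61 (SE 0.082, adjusted p = 1.14e-07). Ndufb3, a subunit of the membrane arm, ran from 1348 in X27.1N to 2035 in X28.1N, with a median of 1737, over the glands and from 650.1 in X4 to 1262 in X9, with a median of 906, over the tumours. The groups were separate, and the change was -0.89 (SE 0.089, adjusted p = 2.55e-10). Ndufa1, Ndufb6, Ndufs6 and Ndufb2, whose groups were separate too, changed by -0.79, -0.69, -0.68 and -0.60. Ndufb7, Ndufb1 and Ndufa7 were the 3 accessory subunits that did not pass the test, with -0.16, -0.11 and -0.10.

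The assembly factors went both ways. Ndufaf7, a methyltransferase that modifies a core subunit, ran from 110.2 in X27.1N to 136 in NewN3, with a median of 123, over the glands and from 109 in X22L to 184 in X2, with a median of 143, over the tumours. Of the tumours 16 lay above every gland, and the change was 0.20 (SE 0.060, adjusted p = 0.00449). It did not pass without the 7 glands with the most Ckm (0.22, adjusted p = 0.0764) or against X27.1N, X28.1N and Young alone (0.20, adjusted p = 0.237). Ndufaf4 ran from 149.8 in NewN7 to 227 in NewN6, with a median of 170.4, over the glands and from 148 in X4 to 262 in X9, with a median of 203, over the tumours, and the groups overlapped. Its change was 0.18 (SE 0.076, adjusted p = 0.0422), it did not pass with arrays scaled to the same median (adjusted p = 0.0557), and it was 0.068 (adjusted p = 0.697) without the 7 glands with the most Ckm and 0.061 (adjusted p = 0.816) against X27.1N, X28.1N and Young alone. Ndufaf8 and Ndufaf3 were lower, by -0.54 and -0.29. For Ndufaf3 the reference decided the direction: the 8 NewN glands averaged 232 ± 25.5 (SD, n = 8) and the other 3 glands 159 ± 19.1 (SD, n = 3), and against those 3 the change was 0.11 (adjusted p = 0.633). Ndufaf5, another factor of this kind, was at -0.028 (SE 0.077, adjusted p = 0.792) and did not pass.

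**Figure D2:**
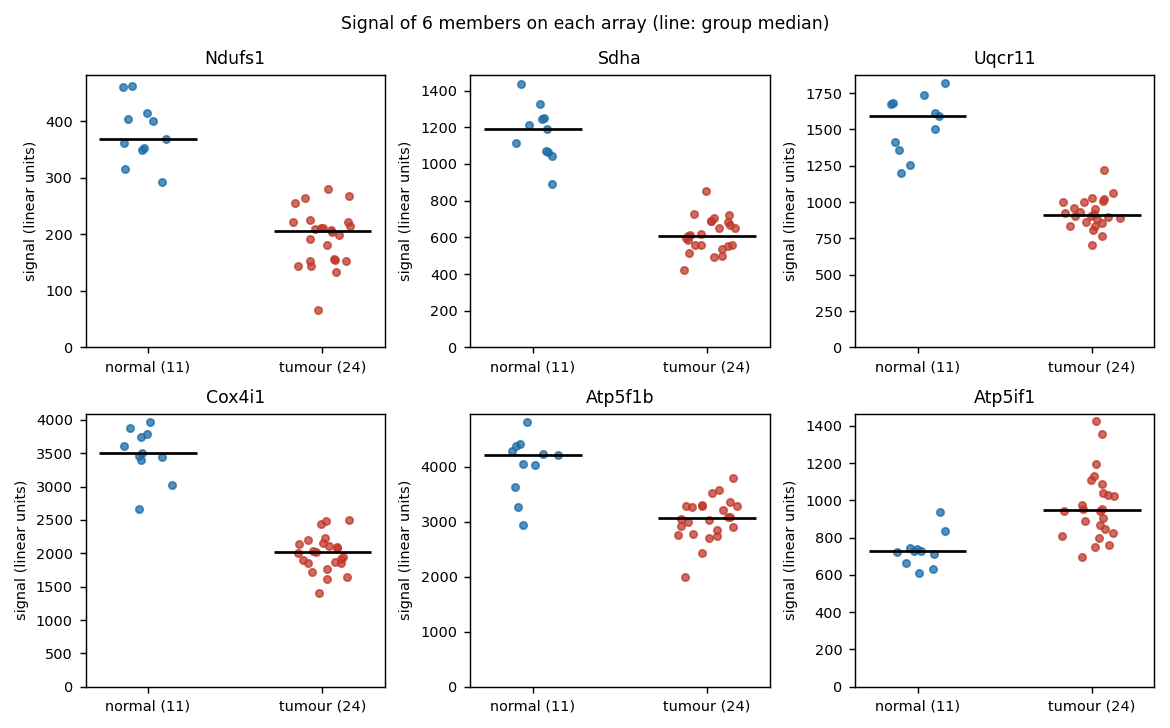
Signal on a linear scale for Ndufs1, Sdha, Uqcr11, Cox4i1, Atp5f1b and Atp5if1 on each of the 35 arrays, with 1 point an array and a line at the group median. The tumours lie below every gland for Ndufs1, Sdha and Cox4i1, 23 of 24 do so for Uqcr11 and 9 for Atp5f1b, and 14 lie above every gland for Atp5if1.

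Complex II, the succinate dehydrogenase, is both an enzyme of the citric acid cycle and an entry to the respiratory chain. All 4 of its genes were lower, with a median of -0.71. With quantile normalization all 4 passed, with a median of -0.41. Sdha encodes the flavoprotein that oxidises succinate. Readings ran from 888 in X27.1N to 1436 in NewN2, with a median of 1190, over the glands and from 422 in X4 to 851 in X9, with a median of 609, over the tumours. The groups were separate, and the change was -0.93 (SE 0.079, adjusted p = 3.95e-12), 1.91-fold lower. Sdhd, which anchors the enzyme in the membrane, ran from 1071 in NewN8 to 1339 in NewN2, with a median of 1179, over the glands and from 586 in X4 to 1028 in X22L, with a median of 739.7, over the tumours. Its groups were separate as well, the change was -0.67 (SE 0.074, adjusted p = 2.04e-09), and a second probe set gave -0.77 with separate groups.

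Sdhc, the other membrane anchor, ran from 987 in X27.1N to 1480 in NewN1, with a median of 1295, over the glands and from 584 in X4 to 995 in X29.1, with a median of 737, over the tumours. Of the tumours 23 lay below every gland, and the change was -0.76 (SE 0.073, adjusted p = 8.51e-11). Sdhb, the iron-sulfur subunit, changed least of the 4. Its signal ran from 866 in NewN6 to 1233 in NewN2, with a median of 1145, over the glands and from 471 in X4 to 1083 in X9, with a median of 754, over the tumours. Of the tumours 17 lay below every gland. The change was -0.50 (SE 0.10, adjusted p = 0.000112), and it did not pass without the 7 glands with the most Ckm (-0.39, adjusted p = 0.0678) or against X27.1N, X28.1N and Young alone (-0.40, adjusted p = 0.144). The 2 factors that mature this enzyme and lie outside the name rule were lower too. Sdhaf2, which helps to attach the flavin to Sdha, changed by -1.22 (SE 0.081, adjusted p = 4.51e-15), and Sdhaf1, which serves the iron-sulfur subunit, by -0.90 (SE 0.074, adjusted p = 1.71e-12), and for both every tumour lay below every gland.

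Complex III, the cytochrome bc1 complex, had 11 of 13 genes lower and 2 that did not pass, with a median of -0.32. With quantile normalization 6 were lower and 1 was higher, with a median of -0.14. Of its 8 subunits 7 were lower, and of its 5 assembly factors 4 were lower. Uqcr11, a small accessory subunit, ran from 1197 in X27.1N to 1821 in NewN2, with a median of 1594, over the glands and from 704 in X4 to 1221 in X9, with a median of 911, over the tumours. Of the tumours 23 lay below every gland, and the change was -0.73 (SE 0.067, adjusted p = 3.30e-11). Uqcrfs1 encodes the Rieske iron-sulfur protein, which takes electrons from ubiquinol. Signals went from 1200 in Young to 1750 in NewN2, with a median of 1550, over the glands and from 556 in X26 to 1219 in X29.1, with a median of 905, over the tumours. The change was -0.72 (SE 0.10, adjusted p = 9.33e-08), with 23 tumours below every gland. The 8 NewN glands averaged 1590 ± 99.0 (SD, n = 8) and the other 3 1236 ± 46.5 (SD, n = 3), and against those 3 alone the change was -0.46 (adjusted p = 0.0614).

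Cyc1 encodes cytochrome c1, which hands the electron to cytochrome c. Over the arrays its signal ran from 973 in NewN6 to 1421 in X28.1N, with a median of 1246, over the glands and from 567 in X4 to 1301 in X17, with a median of 1027, over the tumours. Of the tumours 8 lay below every gland. The change was -0.31 (SE 0.085, adjusted p = 0.00245), with quantile normalization it was -0.0023, and without the 7 glands with the most Ckm it did not pass (-0.30, adjusted p = 0.0973). Uqcr10, named for its signal, ran from 1927 in NewN6 to 2910 in Young, with a median of 2232, over the glands and from 1411 in X4 to 2576 in X22L, with a median of 1947, over the tumours, and the groups overlapped. Its change was -0.24 (SE 0.081, adjusted p = 0.0104), it turned to 0.012 with quantile normalization, and it did not pass against the NewN glands alone (-0.18, adjusted p = 0.0777) or without the 7 glands with the most Ckm (-0.27, adjusted p = 0.107). Uqcrh, the hinge protein between cytochromes c1 and c, and the assembly factor Uqcc5 did not pass. They were at 0.065 (SE 0.081, adjusted p = 0.516) and -0.034 (SE 0.11, adjusted p = 0.819), and with quantile normalization Uqcrh passed as higher, at 0.32 (adjusted p = 0.00112). Cytochrome c itself (Cycs) is read by probe sets that the annotation shares with other symbols, and no value is given for it.

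Complex IV, cytochrome c oxidase, had 11 of 18 genes lower and 2 higher, with a median of -0.29. After quantile normalization 6 were lower and 2 were higher, with a median of -0.061. Several of its subunits exist as isoforms, one found in most tissues and one found in muscle, lung or testis, and the isoforms did not all change alike. Cox4i1, the general isoform of the largest nuclear-coded subunit, ran from 2666 in X27.1N to 3961 in NewN1, with a median of 3497, over the glands and from 1407 in X26 to 2493 in X9, with a median of 2014, over the tumours. The groups were separate. The change was -0.81 (SE 0.070, adjusted p = 5.10e-12), 1.75-fold lower, and it was -0.57 with quantile normalization. Its isoform Cox4i2, known from lung and from cells low in oxygen, ran from 78.1 in NewN4 to 109 in NewN1, with a median of 94.4, over the glands and from 50.6 in X8 to 165 in X14, with a median of 73.6, over the tumours. Of the tumours 17 lay below every gland and 1 lay above. The change was -0.31 (SE 0.10, adjusted p = 0.0086), and it did not pass against X27.1N, X28.1N and Young alone (-0.41, adjusted p = 0.136).

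The difference between the changes of both isoforms was tested with a 2-sided permutation test of the within-array difference, adjusted over the 5 pairs that could be measured. Cox4i1 changed by -0.50 more than Cox4i2 (SE 0.11, permutation p = 0.00012, adjusted p = 0.0006). That difference was -0.13 (adjusted p = 0.456) with quantile normalization. Under that scaling the change of Cox4i2 was -0.44 in place of -0.31.

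In the subunit 6A pair, one gene lay at or under the floor in most tumours. Cox6a1, the isoform of most tissues, ran from 1471 in NewN5 to 1942 in NewN2, with a median of 1688, over the glands and from 951 in X21 to 1894 in X17, with a median of 1313, over the tumours. Of the tumours 17 lay below every gland, and the change was -0.29 (SE 0.085, adjusted p = 0.00343). It was -0.015 (adjusted p = 0.883) with quantile normalization, and it did not pass against X27.1N, X28.1N and Young alone (-0.32, adjusted p = 0.169) or without the 7 glands with the most Ckm (-0.35, adjusted p = 0.0523). Cox6a2, the isoform of heart and skeletal muscle, ran from 4.64 in NewN1 to 492 in NewN2, with a median of 84.5, over the glands and from 5.07 in X9 to 49.3 in X10, with a median of 17.9, over the tumours. Its change was -1.30 (SE 0.23, adjusted p = 1.59e-05) and rests on a few glands: 23 of the 24 tumours and 2 of the 11 glands were at or under the floor of 41.6, and NewN2, NewN3, NewN7 and NewN4 read 492, 268, 248 and 161. The change of Cox6a1 minus that of Cox6a2 was 1.01 (SE 0.37, permutation p = 0.00092, adjusted p = 0.0023). Its size depends on the floor: with the floor at the 5th percentile it was 1.54. Against X27.1N, X28.1N and Young alone it was 0.19 (adjusted p = 0.326).

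Cox6a2 moved with muscle RNA in the glands. Ckm, the creatine kinase of muscle, ran from 45.0 in NewN1 to 3382 in NewN2, with a median of 461, over the glands and from 61.8 in X17 to 148 in X25L, with a median of 87.9, over the tumours. Over the 11 glands, log2 Cox6a2 and log2 Ckm had a Pearson r of 0.95 (permutation p = 2e-05, adjusted p = 8e-05 over 4 relations). Spearman's rho was 0.97 (permutation p = 1e-05, the smallest these permutations can give, adjusted p = 4e-05). Without NewN1 and NewN6, the glands farthest from the median Ckm, r was 0.96. Without the 7 glands whose Ckm was above every tumour, the change of Cox6a2 was -0.14 (adjusted p = 0.045). Acta1, the actin of skeletal muscle, ran from 32.2 in X28.1N to 4427 in NewN2, with a median of 845, over the glands and from 1 in X4 to 310.0 in X17, with a median of 4.50, over the tumours.

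**Figure D3:**
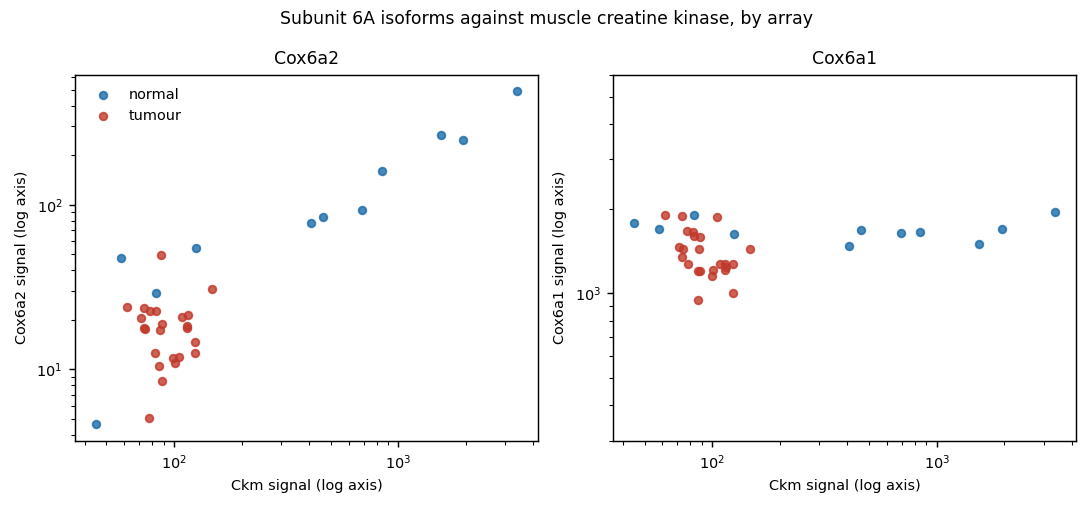
Signal of Cox6a2 (left) and Cox6a1 (right) against the signal of Ckm on the same array, all on log axes, with 11 glands and 24 tumours as points. Cox6a2 rises with Ckm over the glands (r 0.95 for log2 values) from 4.64 in NewN1 to 492 in NewN2, and Cox6a1 shows no such rise (r -0.13).

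For Cox6a1 the same correlation over the 11 glands was -0.13 (permutation p = 0.705, adjusted p = 0.940; Spearman's rho -0.10, permutation p = 0.778, adjusted p = 0.984), and it was 0.0018 without NewN1 and NewN6. Cox8b, the muscle isoform of subunit 8, gave r 0.52 (permutation p = 0.0994, adjusted p = 0.199) and rho 0.65 (permutation p = 0.0325, adjusted p = 0.0650), and r 0.49 without these glands. Cox7a1, an isoform of heart, muscle and brown fat, gave r -0.021 (permutation p = 0.950, adjusted p = 0.950) and rho -0.0091 (permutation p = 0.984, adjusted p = 0.984), and r -0.19 without them.

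Cox8a, the general isoform of subunit 8, ran from 2417 in X27.1N to 4008 in NewN1, with a median of 3532, over the glands and from 1799 in X4 to 2885 in X17, with a median of 2459, over the tumours. Of the tumours 11 lay below every gland, and the change was -0.54 (SE 0.077, adjusted p = 3.98e-07). Cox8b ran from 41.6 in NewN1 to 124 in NewN2, with a median of 79.6, over the glands and from 43.3 in X26 to 99.7 in X18, with a median of 67.2, over the tumours, the groups overlapped, and the change was -0.10 (SE 0.14, adjusted p = 0.55). Cox8a changed by -0.43 more than Cox8b (SE 0.22, permutation p = 0.0214, adjusted p = 0.0357). This difference did not pass against the 8 NewN glands alone (-0.41, adjusted p = 0.0537) and was -0.051 (adjusted p = 0.742) with quantile normalization.

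Cox6b1, the general isoform of subunit 6B, ran from 1390 in NewN8 to 1830 in NewN1, with a median of 1616, over the glands and from 1004 in X4 to 1734 in X9, with a median of 1248, over the tumours. The change was -0.34 (SE 0.071, adjusted p = 0.000107), with 18 tumours below every gland, and it was -0.052 (adjusted p = 0.478) with quantile normalization. Cox6b2, known from testis, ran from 49.7 in NewN3 to 103 in NewN2, with a median of 69.9, over the glands and from 23.5 in X8 to 122 in X22L, with a median of 38.5, over the tumours, and 14 tumours were at or under the floor. Its change was -0.55 (SE 0.13, adjusted p = 0.00067), it was -0.48 (adjusted p = 0.0589) without the 7 glands with the most Ckm, and the difference between the isoforms was 0.20 (SE 0.12, permutation p = 0.141, adjusted p = 0.141). That difference passed in other settings: it was 0.61 (adjusted p = 0.00135) with quantile normalization, 0.45 (adjusted p = 0.0268) with the floor at the 5th percentile and 0.25 (adjusted p = 0.0363) without the tumour X22L.

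Ndufa4 ran from 1699 in NewN3 to 2250 in Young, with a median of 1918, over the glands and from 947 in X4 to 1972 in X9, with a median of 1429, over the tumours. Of the tumours 21 lay below every gland, and the change was -0.42 (SE 0.079, adjusted p = 2.88e-05). With quantile normalization it did not pass (-0.15, adjusted p = 0.0553). Its relative Ndufa4l2, a gene known to be induced in low oxygen, ran from 80.2 in NewN6 to 165 in NewN3, with a median of 113, over the glands and from 56.6 in X25R to 289.7 in X19, with a median of 118, over the tumours. The tumours reached past the glands on both sides, with 6 below and 6 above every gland, and the change was 0.0079 (SE 0.19, adjusted p = 0.999). The difference between both changes was -0.43 (SE 0.16, permutation p = 0.0416, adjusted p = 0.0520), just short of the threshold. It passed at -0.44 (adjusted p = 0.0413) without X22L and at -0.43 (adjusted p = 0.0416) with the floor at the 5th percentile. It was -0.081 (adjusted p = 0.742) with quantile normalization, -0.40 (adjusted p = 0.122) against the NewN glands alone and -0.49 (adjusted p = 0.298) against the other 3.

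Cox5a, a subunit on the matrix side of the enzyme, ran from 162 in NewN8 to 205 in X28.1N, with a median of 193, over the glands and from 106 in X32 to 331 in X8, with a median of 178, over the tumours. The tumours spread on both sides of the glands, 8 below and 9 above, and the change was -0.0065 (SE 0.12, adjusted p = 0.989). A further probe set is shared with another symbol and was not used. Cox7a1 was higher in the tumours. Readings ran from 41.2 in NewN1 to 63.8 in NewN5, with a median of 52.6, over the glands and from 48.6 in X32 to 117 in X4, with a median of 66.9, over the tumours, close to the floor, with 16 tumours above every gland. The change was 0.42 (SE 0.093, adjusted p = 0.000266), it was 0.28 with quantile normalization, and it did not pass against X27.1N, X28.1N and Young alone (0.43, adjusted p = 0.0643).

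Fat markers bear on Cox7a1 and Cox8b, which brown and beige fat also express. Fabp4, a fatty acid carrier of adipocytes, ran from 2291 in X27.1N to 6273 in X28.1N, with a median of 4556, over the glands and from 9.34 in X18 to 929 in X15, with a median of 37.3, over the tumours. Cidea, a lipid droplet protein of brown fat that white fat can also express, ran from 240.5 in X27.1N to 1041 in X28.1N, with a median of 634, over the glands and from 43.8 in X6 to 90.8 in X4, with a median of 57.6, over the tumours. Ucp1, the uncoupling protein that defines brown fat, was near the floor in both groups, at 6.56 to 52.5 over the glands and 24.9 to 61.3 over the tumours. It passed in limma as higher in the tumours, at 0.16 (adjusted p = 0.0239), with 9 tumours above every gland. Of the 6 measured brown and beige markers, among which Cox7a1 and Cox8b are counted, 2 were lower and 2 were higher. The 2 higher ones were Ucp1 and Cox7a1 itself. The summed signal of the 6 ran from 558 to 1396 over the glands and from 298 to 462 over the tumours. Cidea, with the ranges given above, is 1 of the 6 and was lower.

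Cox6c-ps1, annotated as a pseudogene of Cox6c, was the other gene of complex IV that was higher. Its signal ran from 87.8 in NewN4 to 171 in X28.1N, with a median of 120.4, over the glands and from 111 in X9 to 203 in X4, with a median of 152, over the tumours, and the change was 0.24 (SE 0.10, adjusted p = 0.0377). Since it resembles Cox6c in sequence, its signal is uncertain, and it did not pass without the tumour X4 (0.22, adjusted p = 0.0520). Nor did it pass with quantile normalization (0.20, adjusted p = 0.0801) or without the 7 glands with the most Ckm (0.23, adjusted p = 0.260), and it was 0.036 (adjusted p = 0.934) against X27.1N, X28.1N and Young alone. Cox6c itself, a small subunit of the membrane part, changed by -0.56 (SE 0.066, adjusted p = 8.44e-09) with separate groups.

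Complex V, the ATP synthase, had 13 of 16 genes lower and 1 higher, with a median of -0.36. These counts were 6 and 3 with quantile normalization, with a median of -0.091. All 5 subunits of its F1 head, where ATP is made, were lower, with a median of -0.40 (2 of the 5 with quantile normalization), and of the 10 subunits of the membrane part and stalk 8 were lower, with a median of -0.34. Atp5f1b is the catalytic beta subunit. Signals went from 2935 in X27.1N to 4819 in NewN1, with a median of 4213, over the glands and from 1999 in X4 to 3802 in X2, with a median of 3068, over the tumours. Of the tumours 9 lay below every gland, and the change was -0.40 (SE 0.072, adjusted p = 1.69e-05), 1.32-fold lower. Against X27.1N, X28.1N and Young alone neither Atp5f1b (-0.30, adjusted p = 0.101) nor Atp5f1d (-0.38, adjusted p = 0.0919) passed. Atp5f1d, the delta subunit of the rotating shaft, ran from 1090 in Young to 1647 in NewN2, with a median of 1295, over the glands and from 624 in X4 to 1160 in X6, with a median of 927, over the tumours. Of the tumours 21 lay below every gland, and the change was -0.56 (SE 0.086, adjusted p = 1.41e-06).

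In the stalk and membrane part, Atp5pb changed most. This subunit is part of the stalk that holds the head still, and it ran from 1807 in NewN3 to 2240 in NewN6, with a median of 1981, over the glands and from 1071 in X4 to 1980 in X22L, with a median of 1439, over the tumours. Of the tumours 23 lay below every gland, and the change was -0.48 (SE 0.067, adjusted p = 2.50e-07). Atp5mg, a small membrane subunit, ran from 1521 in NewN6 to 1792 in NewN2, with a median of 1603, over the glands and from 931 in X21 to 1517 in X6, with a median of 1156, over the tumours. The groups were separate, and the change was -0.46 (SE 0.064, adjusted p = 2.18e-07). The others ran from -0.47 for Atp5pf to 0.074 for Atp5mpl. Atp5mc3, one of the genes for the ring that turns with the protons, changed by -0.38. Its relatives Atp5mc1 and Atp5mc2 share their probe sets with other symbols and were not compared.

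Atp5mpl and Atp5mk, small subunits of the membrane part, did not pass, at 0.074 (SE 0.063, adjusted p = 0.325) and 0.021 (SE 0.080, adjusted p = 0.859). With quantile normalization both passed as higher, at 0.37 (adjusted p = 3.16e-06) and 0.28 (adjusted p = 0.00139). For Atp5me, another such subunit, the probe sets disagreed: the brighter one gave -0.27 (SE 0.080, adjusted p = 0.00429), which turned to 0.039 with quantile normalization, and the dimmer one, at a mean signal of 72.9 over all arrays, gave 0.58 (adjusted p = 2.35e-05).

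Atp5if1 was the 1 gene of its complex that passed the test as higher. It encodes the inhibitor that stops the ATP synthase from running backwards and breaking down ATP. Over the arrays its signal ran from 608 in NewN6 to 936 in X27.1N, with a median of 727, over the glands and from 696 in X4 to 1423 in X9, with a median of 948, over the tumours. Of the tumours 14 lay above every gland, and 0 lay below. The change was 0.39 (SE 0.087, adjusted p = 0.000218), 1.31-fold higher. Its other 2 probe sets, both dimmer, gave 0.78 and 1.06, with 21 and 15 tumours above every gland. For the one that gave 1.06, 9 of the 11 glands were at or under the floor, so that size depends on the floor. With quantile normalization the change was 0.66 (adjusted p = 2.34e-09). Against X27.1N, X28.1N and Young alone it was 0.21 (adjusted p = 0.405). Those 3 glands averaged 833 ± 103 (SD, n = 3) and the 8 NewN glands 694 ± 52.0 (SD, n = 8).

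**Figure D4:**
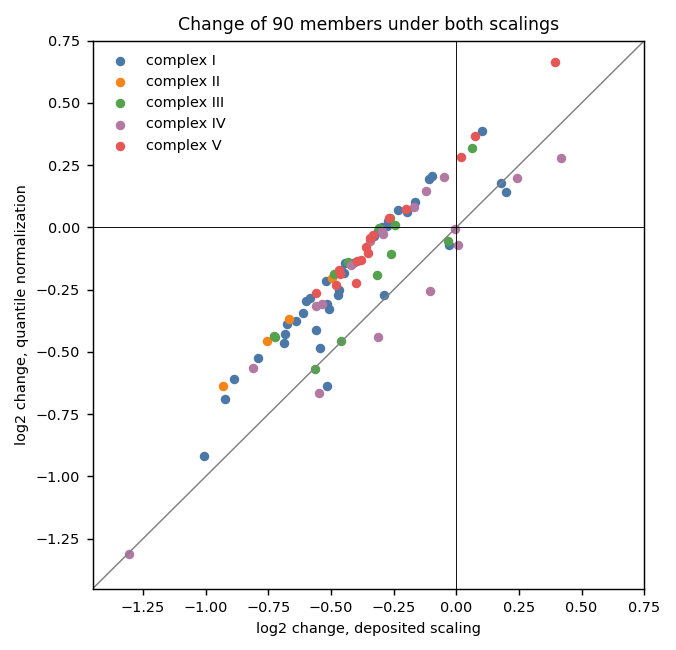
Log2 change of the 90 genes in the deposited scaling (horizontal) and after quantile normalization (vertical), coloured by complex, with the line of equal values. Most points lie above the line, so the median moved from -0.39 to -0.15, and Atp5if1 moved from 0.39 to 0.66.

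The genes were also read array by array. For each array, the mean over the 90 genes of the log2 deviation from each gene's mean over all arrays was taken as a description. It ran from 0.14 in NewN6 to 0.40 in NewN2 over the glands and from -0.45 in X4 to 0.16 in X9 over the tumours, and 23 of the 24 tumours lay below every gland. The means of complexes II and III put all 24 tumours below all 11 glands, and those of complexes I, IV and V put 23, 22 and 20 there. These means by complex were taken in the deposited scaling only. With quantile normalization the mean over the 90 genes ran from -0.0047 to 0.20 over the glands and from -0.16 to 0.16 over the tumours, and 18 tumours lay below every gland.

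**Figure D5:**
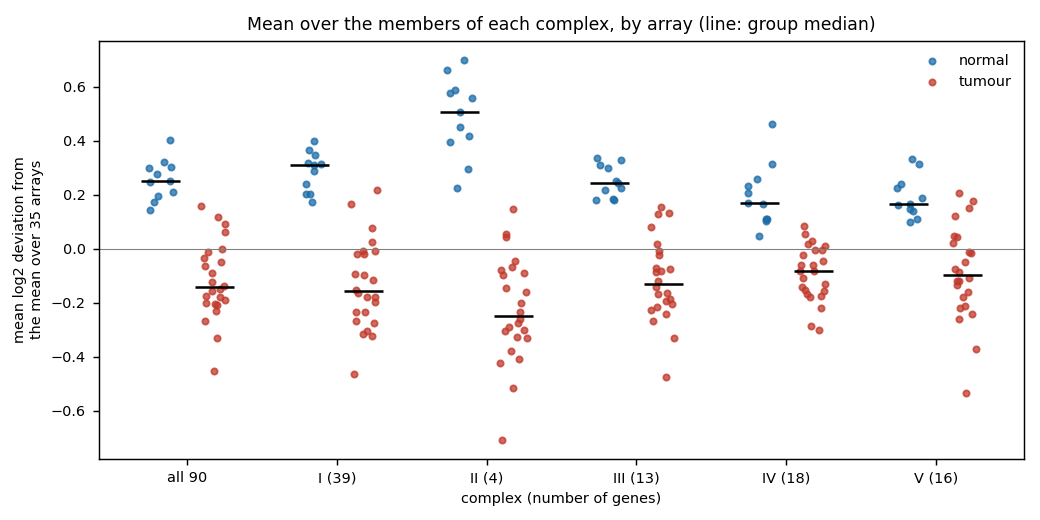
Mean log2 deviation of the genes of each complex from their mean over 35 arrays, with 1 point an array, glands in blue, tumours in red and a line at the group median. Over all 90 genes the glands sit between 0.14 and 0.40 and the tumours between -0.45 and 0.16. In the deposited scaling, which is the one shown, the groups are separate for complexes II and III.

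Single tumours stood out in many genes at once. X4 had the lowest tumour signal for 42 of the 90 genes, and X9 and X22L had the highest for 28 and 20. Counts of this kind, here and below, were not made for all genes. X4 also had the lowest 90th percentile of signal of all arrays, 491, while X9 and X22L had 648 and 637. After quantile normalization X4 was lowest for 10 genes, X9 was highest for 30, and X22L was highest for 11 and lowest for 7. Without X4, 70 genes were lower and 4 were higher, against 27% and 30.9% of all genes. X20 and X21 lay below the tumour median for 81 and 80 genes, and had 90th percentiles of 536 and 546. After quantile normalization their means over the 90 genes were -0.084 and -0.16, where the tumour median was -0.082. X15, the tumour with the highest Fabp4 signal (929), lay above the tumour median for 71 genes, and had the highest 90th percentile of the tumours, 678. After quantile normalization its mean over the 90 genes was -0.099, below the tumour median of -0.082. Among the glands, NewN6 was lowest for 22 genes and Young highest for 23. The log2 SD was larger over the tumours than over the glands for 76 of the 90 genes, a count not made for all genes. Its medians over the tumours and the glands were 0.23 and 0.17 for the 90, and 0.28 and 0.25 for all genes. The 90th percentile of the deposited signals ran from 491 to 678 over the tumours and from 639 to 763 over the glands. Its part in this spread was not tested.

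Other mitochondrial pathways were read from lists of their genes, each against the same 27.6% lower and 31.4% higher over all genes. The citric acid cycle and pyruvate dehydrogenase, which make the NADH and succinate that feed the chain, had 15 of 16 measured genes lower and 1 higher, with a median of -0.86. Pyruvate carboxylase (Pc), which refills the cycle, ran from 432 in NewN6 to 956 in NewN3, with a median of 825, over the glands and from 129.9 in X25L to 364 in X2, with a median of 175, over the tumours. The groups were separate, and the change was -2.05 (SE 0.11, adjusted p = 1.96e-17). Ogdh, of the oxoglutarate dehydrogenase complex, changed by -1.18 (SE 0.11, adjusted p = 5.61e-11). With quantile normalization 14 of the 16 were lower and 1 was higher.

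The genes that bring electrons to ubiquinone from fatty acids and other sources had 4 of 9 lower and 4 higher (3 and 3 with quantile normalization). The largest changes were in the electron transfer flavoprotein route from fatty acid oxidation: Etfb, the beta subunit of the flavoprotein, changed by -1.65 (SE 0.13, adjusted p = 9.65e-13) and Etfdh, its dehydrogenase, by -0.95 (SE 0.10, adjusted p = 4.34e-10). Among genes that move ATP and its relatives out of mitochondria, 7 of 14 were lower and 3 were higher. With quantile normalization 4 of these were lower and 4 were higher. Ak3, an adenylate kinase of the matrix, changed by -0.83 (SE 0.17, adjusted p = 0.0001), and Vdac3, a channel of the outer membrane, by -0.65 (SE 0.081, adjusted p = 2.66e-08). Of the 19 measured assembly factors outside the name rule, 6 were lower and 2 were higher, with Sdhaf2 and Sdhaf1 the largest. These counts were 7 and 4 with quantile normalization.

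The machinery that builds mitochondria showed a mixed picture. Of 71 mitochondrial ribosome genes, 27 were lower and 10 were higher, with a median of -0.068, and with quantile normalization 13 were lower and 20 were higher. Mrpl33 and Mrps7 had the largest changes there, -1.01 (SE 0.11, adjusted p = 9.48e-10) and -0.77 (SE 0.094, adjusted p = 1.46e-08). Of 23 protein import genes, 9 were lower and 6 were higher, and with quantile normalization 5 were lower and 7 were higher. Timm29, of the inner membrane, changed by -0.53 (SE 0.092, adjusted p = 1.08e-05) and Tomm40, the channel of the outer membrane, by 0.48 (SE 0.055, adjusted p = 4.75e-09). Of 11 measured regulators of mitochondrial biogenesis, 1 was lower and 5 were higher (2 and 5 with quantile normalization). Ppargc1a, the coactivator known for raising mitochondrial content, changed by 0.50 (SE 0.12, adjusted p = 0.000554), with signals near the floor (32.03 to 58.7 over the glands and 38.9 to 101 over the tumours). Esrrb, an estrogen-related receptor, changed by 0.46 (SE 0.10, adjusted p = 0.000303). The single regulator that was lower in the deposited scaling was Tfam, at -0.40 (SE 0.10, adjusted p = 0.000657). Tfam packs and transcribes mitochondrial DNA, and it is named here for being the single one.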

How the data were processed

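Expression was measured once for each of 35 rat tissue samples on RAE230A arrays. The authors deposited 1 linear intensity for each probe set and array. How they made it (software, background, scaling) is not given in the sources used here. Their scaling was kept, array medians running from 158 to 176, and 3601 values were exactly 1. The 57 control probe sets were left out. Before log2 was taken, 41.6 was set as a floor, the 10th percentile over the whole table, so changes of dim genes are understated. Symbols came from the platform annotation: 12783 probe sets have 1 symbol, 312 have several (left unnamed) and 2771 have none. Among those with several, 9 share a member's symbol with another gene.

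Groups came from the labels. The comparison of both used limma 3.58.1 under R 4.3.3, with lmFit, eBayes (trend, robust) and no covariate, on all 15866 probe sets. Benjamini-Hochberg adjustment ran over these, and 0.05 was the threshold. On simulated arrays of this comparison, with 15866 probe sets, 14% of 1.2-fold, 72% of 1.5-fold and 98% of 2-fold changes were recovered. The changes were placed only in probe sets with a mean well above the floor, so these rates do not cover genes near it. Isoform differences and correlations used 100000 permutations (Python 3.11.15, numpy 2.4.6). The number of arrays limits the precision. Titles 27 and 28 occur in both groups; the labels do not say that these samples share a rat, and with 2 pairs the pairing could not be checked.

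Genes named with values were, for each complex, that with the highest mean signal, the 2 lowest and 2 highest changes, called genes on the other side of 0 from the complex median, isoform pairs, a few fixed genes of known role, and the 2 largest changes of each other list. Others, among them Ndufs8, Ndufb3, Atp5mg and Tfam, were named after their values were seen. The members and lists were chosen with earlier results of these data known. Alternatives covered scaling, floor, signal filter, probe set choice, reference glands and single arrays; leaving out the 7 glands with the most Ckm, or the tumour X4, was chosen after seeing the data. Protein sequences and a genome were not used here.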

Additional observations from a re-analysis of the deposited data

How the results depend on the processing

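With 71 lower and 5 higher genes as the values reported, quantile normalization gave 43 and 11, X27.1N, X28.1N and Young as the only glands gave 44 and 0, the probe sets above the median signal gave 2 higher among the 77 genes it holds, and leaving out the 7 glands with the most Ckm, chosen after seeing the data, gave 50 lower and 2 higher. The other settings stayed between 66 and 73 lower and between 4 and 6 higher. A replicate block on the title numbers 27 and 28, which occur in both groups, gave 70 and 5. The difference Cox4i1 minus Cox4i2 was -0.13 with quantile normalization and -0.33 against X27.1N, X28.1N and Young, and Cox6a1 minus Cox6a2 was 0.19 against those glands. Cox8a minus Cox8b was -0.051 with quantile normalization, -0.41 against the NewN glands and -0.49 against the other 3. Cox6b1 minus Cox6b2 passed at 0.61 with quantile normalization, 0.25 without X22L and 0.45 with the floor at the 5th percentile, and Ndufa4 minus Ndufa4l2 at -0.44 and -0.43 in the last 2 of these, while it was -0.081 with quantile normalization. Cox6a1 minus Cox6a2 was 1.54 with the floor at the 5th percentile. The fit against 3 glands has fewer samples. The sign turned with quantile normalization for 16 genes, Ndufb11 (0.0023), Ndufc1 (0.0062), Ndufa11 (0.025), Ndufab1 (0.069), Ndufa12 (0.064), Ndufb7 (0.10), Ndufb1 (0.19), Ndufa7 (0.21), Uqcrc2 (0.037), Uqcr10 (0.012), Cox5b (0.083), Cox7b (0.15), Cox7c (0.20), Ndufa4l2 (-0.070), Atp5me (0.039) and Atp5pd (0.075). In the other settings, among genes that passed the test, the sign turned for Ndufaf3 (0.11) against the 3 glands. It turned for Atp5me with the probe set of highest spread (0.58) or the mean over its probe sets (0.15). Against the 3 glands it also turned for Ndufaf5 (0.013), Cox8b (0.059), Ndufa4l2 (-0.039), Atp5mk (-0.24) and Atp5mpl (-0.049), none of which passed in either fit. For the other cases the cause was not tested. Signals near the floor, those of Cox6a2, Cox6b2, Cox7a1, Cox8b and Cox4i2, limit what can be read from the dim isoforms.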
